A study of Mus musculus with 4 samples.

Results

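Tetraspanins are membrane proteins that cross the bilayer 4 times and gather integrins, immunoglobulin-domain proteins, metalloproteases and each other into clusters at the cell surface and on endosomes. The family was taken as every mouse gene whose symbol starts with Tspan together with Cd9, Cd37, Cd53, Cd63, Cd81, Cd82, Cd151, Upk1a, Upk1b, Rom1 and Prph2, which gave 32 genes. Of these, 29 had a probe set assigned to them alone, out of 18193 genes measured in this way. No probe set of its own was found for Cd63, Tspan7 or the antisense gene Tspan2os, whose expression was therefore not analysed here. Where a gene had several probe sets, the one with the highest log2 intensity, averaged over the lines, stood for it. A gene counted as detected in a line at a log2 intensity of 5, an intensity of 32, or more. Of the 29 tetraspanin genes, 19 were detected in at least 1 line, as were 9415 of the 18193 genes.

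RNA of 4 mouse melanocyte lines, named 9v, 14d, 10d and 13d, was hybridized to Affymetrix arrays, with 1 array per line. The lines were established from the skin of C57BL/6J pups aged 3 days. By their labels, 9v (male) and 14d (female) are wild-type (WT), and 10d (male) and 13d (female) are bcat*, that is, they carry a transgene for a stable and transcriptionally active β-catenin expressed in the melanocyte lineage. The Methods of the article instead name 13d as WT and 14d as bcat*, while both sources agree on 9v and 10d. All lines were grown to 80% confluency in Ham's F12 with 10% fetal bovine serum, antibiotics and 200 nM TPA, a phorbol ester on which melanocyte cultures depend. Each genotype is thus represented by 2 lines at most, each line stands for 1 culture, and no array has a replicate of the same line. The genotypes are therefore compared in both readings, and the lines are also compared pair by pair.

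Tetraspanins are well known in pigment cells. Cd63 sits on the internal vesicles of multivesicular endosomes and helps to sort the fibril protein Pmel in early melanosomes, and Tspan10, also called oculospanin, is expressed in melanocytes and the pigment epithelium of the eye. Tspan10 also belongs to the TspanC8 group with Tspan5, Tspan14, Tspan15, Tspan17 and Tspan33, which carry the sheddase Adam10 out of the endoplasmic reticulum and direct it to its substrates. At the surface, Cd9, Cd81, Cd82 and Cd151 associate with integrins and with immunoglobulin-domain proteins, and Tspan12 assists the Wnt receptor Frizzled4 in binding norrin. Other members are typical of leukocytes, of the bladder or of photoreceptors.

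The 4 arrays were of similar range, with 35.8% to 36.1% of probe sets at or above the detection level, and the RNA integrity number was 9.7 to 9.9. The β-catenin gene Ctnnb1 read 30254 in 9v, 31844 in 14d, 31799 in 10d and 34368 in 13d. Whether these values include the transcript of the transgene beside the endogenous one was not tested. All 11 measured genes of a melanocyte marker list were detected in every line, with summed intensities from 286729 to 313233. No gene of the endothelial list reached the detection level, and 7 of 8 fibroblast, 5 of 6 keratinocyte and 5 of 6 leukocyte markers stayed under it in every line. The exceptions were Col1a2 (175 in 9v, 17 in 14d, 80 in 10d and 24 in 13d), Krt10 and Csf1r. Of 4 measured Schwann cell markers, Mbp and Gfap were undetected, Pmp2 did not exceed 54, and S100b, which melanocytes also express, was 58 in 9v, 5 in 14d, 308 in 10d and 3836 in 13d. The part of these genes in the differences between lines described here was not tested. In bulk RNA, fewer cells of a kind and less RNA per cell cannot be told apart.

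Between 16 and 18 tetraspanin genes were detected in each line, and 16 were detected in all of them. Rom1, Tspan15 and Tspan32 passed the detection level in some lines only, so that by construction they had to differ. The 10 undetected genes were Cd37 and Cd53 of leukocytes, Tspan33 of lymphoid and erythroid cells, Tspan8 and Tspan1 of epithelia, Tspan11, Tspan18, Prph2 of photoreceptors, and Upk1a and Upk1b of the urothelium, with intensities of 4 to 8 in every line except for Tspan33 at 16 to 17. The detected genes were far from equal in how much they varied. Once values under the detection level were raised to it, the highest and lowest lines were a median of 2.32-fold apart over the 19 detected tetraspanin genes and 1.79-fold over the 9415 detected genes. A range of at least 2-fold was found for 11 of the 19 (57.9%) and for 3780 of the 9415 (40.1%), and a range of at least 4-fold for 5 (26.3%) and for 1100 (11.7%).

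**Figure D1:**
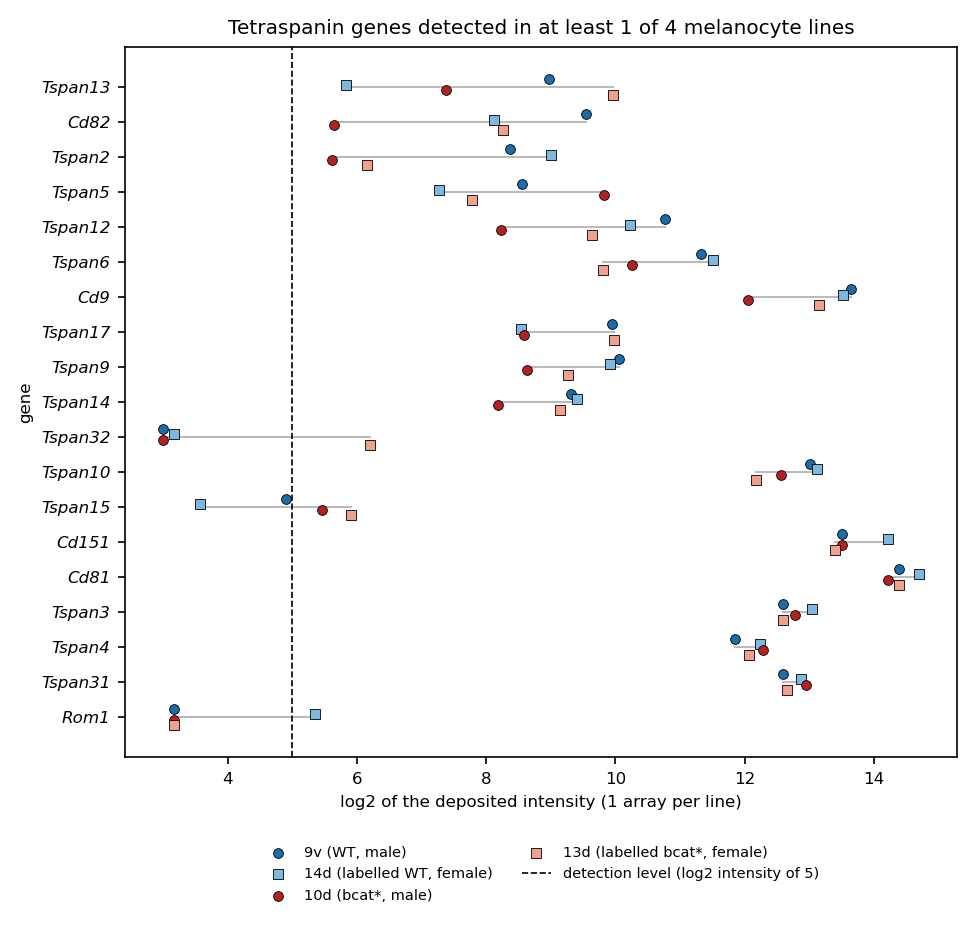
Log2 intensity (horizontal axis) of the 19 detected tetraspanin genes (vertical axis, ordered by their range) in each line, 1 point per array and therefore without error bars; points of a gene are shifted vertically only to keep them apart, and the dashed line is the detection level. Of the genes detected in every line, Tspan13, Cd82, Tspan2, Tspan5 and Tspan12 spread by more than 2 on the log2 scale, whereas Cd81, Tspan3, Tspan4 and Tspan31 spread by 0.50 or less.

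The 250 bases upstream of an annotated start are shown for 5 genes on which the results below turn. Tspan2 was the member with the largest separation of the labelled genotypes, and Tspan13 and Tspan17 separated the genotypes of the article. Tspan12 was taken for its place in Wnt signalling and Tspan10 for its place in pigment cells. The sequences are from RefSeq (GRCm38.p6), written 5′ to 3′ on the strand of the gene, and capitals mark a match to a Tcf/Lef motif (TCAAAG or ACAAAG on either strand) or to an M-box (TCATGTG or TCACGTG on either strand), the motif bound by Mitf.
Tspan2 promoter, chr3:102734520-102734769, plus strand: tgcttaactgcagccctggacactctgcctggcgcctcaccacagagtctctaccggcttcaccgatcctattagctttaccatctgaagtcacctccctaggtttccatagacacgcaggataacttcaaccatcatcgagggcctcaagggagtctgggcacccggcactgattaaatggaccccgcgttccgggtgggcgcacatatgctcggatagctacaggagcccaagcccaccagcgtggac
Tspan13 promoter, chr12:36042479-36042728, minus strand: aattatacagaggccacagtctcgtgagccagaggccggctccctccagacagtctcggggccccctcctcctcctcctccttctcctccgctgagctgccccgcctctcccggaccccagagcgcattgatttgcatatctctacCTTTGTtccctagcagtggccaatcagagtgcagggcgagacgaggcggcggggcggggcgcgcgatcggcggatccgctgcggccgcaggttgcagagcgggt
Tspan17 promoter, chr13:54789155-54789404, plus strand: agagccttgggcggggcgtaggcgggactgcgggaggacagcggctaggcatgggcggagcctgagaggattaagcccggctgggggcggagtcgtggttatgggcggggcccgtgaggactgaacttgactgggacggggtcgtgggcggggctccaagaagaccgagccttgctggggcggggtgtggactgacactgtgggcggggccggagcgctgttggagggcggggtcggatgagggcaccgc
Tspan12 promoter, chr6:21852534-21852783, minus strand: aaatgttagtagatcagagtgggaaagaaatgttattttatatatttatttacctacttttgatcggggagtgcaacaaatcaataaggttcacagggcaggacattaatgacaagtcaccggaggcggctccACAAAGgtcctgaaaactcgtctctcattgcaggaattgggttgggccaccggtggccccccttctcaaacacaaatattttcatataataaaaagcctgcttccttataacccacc
Tspan10 promoter, chr11:120442381-120442630, plus strand: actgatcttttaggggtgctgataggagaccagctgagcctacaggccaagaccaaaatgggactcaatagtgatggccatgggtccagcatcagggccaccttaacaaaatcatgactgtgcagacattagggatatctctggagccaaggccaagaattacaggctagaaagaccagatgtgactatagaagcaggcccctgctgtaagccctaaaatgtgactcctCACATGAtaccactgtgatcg
The match for Tspan12 was ACAAAG at 117 bases from the start used. For Tspan13 it was CTTTGT, the same motif on the opposite strand, at 104 bases. For Tspan10 it was CACATGA, an M-box on the opposite strand, at 21 bases. Each distance is from the first base of the match to the start used. In the windows of Tspan17 and of the Tspan2 start shown, neither motif was present. The windows of Tspan12 and Tspan17 lie inside the annotated genes, which span chr6:21771391-21879596 and chr13:54789102-54796775. They are therefore not the bases before the outermost start of these genes, which are not shown. The window of a further annotated start of Tspan2, which is not shown, held ACAAAG at 42 bases from that start. Of 40 such windows of 30 tetraspanin genes, 9 held a Tcf/Lef motif (22.5%) and 3 an M-box (7.5%, in Cd37, Tspan3 and Tspan10), while 9075 of 32851 windows of all genes held the former (27.6%) and 2062 the latter (6.28%). The 30 genes are those with a listed window and include Cd63, which had no probe set of its own and held a Tcf/Lef motif. A match to letters is not a binding site, and no binding data were analysed here.

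Of the members placed on endosomes and melanosomes, Tspan10 had intensities of 8270 in 9v, 8912 in 14d, 6025 in 10d and 4616 in 13d. It was high in every line and at most 1.93-fold apart, with the labelled WT lines above the labelled bcat* lines. Cd82, also known as a metastasis suppressor, had intensities of 750 in 9v, 279 in 14d, 50 in 10d and 306 in 13d. The range of 15.0-fold was set by lines 9v and 10d, which both sources assign to WT and bcat*, while 14d and 13d lay within 1.10-fold of each other. A further probe set of Cd82 read 16 in every line, under the detection level, so that the range rests on 1 probe set. Tspan6, which has been linked to endosomal sorting and exosomes, had intensities of 2548 in 9v, 2913 in 14d, 1225 in 10d and 897 in 13d. The WT and bcat* lines of the labels did not overlap, and the second probe set of Tspan6 gave the same order of lines, with 1153, 1362, 507 and 352. Tspan3 varied little, from 6185 in 9v to 8399 in 14d.

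The TspanC8 group, the companions of Adam10, held genes with quite different patterns over the lines. Tspan5 had intensities of 378 in 9v, 154 in 14d, 905 in 10d and 220 in 13d. It was the only detected tetraspanin gene with both male lines above both female lines, and line 10d was highest in its second probe set as well (118, 35, 295 and 27). That probe set differed from the first in its lowest line, which was 13d and not 14d. Tspan17 had intensities of 981 in 9v, 371 in 14d, 383 in 10d and 1010 in 13d. Lines 9v and 13d were thus 1.03-fold apart and 14d and 10d 1.03-fold apart, with at least 2.56-fold between the pairs, and the second probe set showed the same split (504, 219, 206 and 542). Tspan14 had intensities of 635 in 9v, 681 in 14d, 293 in 10d and 570 in 13d, so that only 10d stood below the others. Tspan15 lay near the detection level, with 30 in 9v, 12 in 14d, 44 in 10d and 60 in 13d, and Tspan33 was undetected. Adam10 itself had intensities of 12547 in 9v, 10690 in 14d, 12690 in 10d and 11157 in 13d. Unlike Tspan5 and Tspan17, it stayed within 1.19-fold over the lines.

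Of the members that organise the cell surface, Cd9 had intensities of 12847 in 9v, 11786 in 14d, 4232 in 10d and 9088 in 13d. Line 10d was at least 2.15-fold below every other line. Cd81, which shares immunoglobulin-domain partners with Cd9, had intensities of 21529 in 9v, 26685 in 14d, 18893 in 10d and 21390 in 13d and so stayed within 1.41-fold. Cd151, the partner of laminin-binding integrins, had intensities of 11557 in 9v, 19139 in 14d, 11621 in 10d and 10743 in 13d. Only 14d stood apart, and all 4 detected probe sets of Cd151 were highest in 14d. Tspan9, first studied in platelets, had intensities of 1063 in 9v, 964 in 14d, 400 in 10d and 613 in 13d. Its second probe set, with 61, 65, 23 and 27, fell under the detection level in 10d and 13d. Tspan4, known from the migrasomes that migrating cells leave behind, spanned 1.36-fold, from 3680 in 9v to 4993 in 10d. The surface members Tspan8, Tspan11 and Tspan18 were undetected.

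Tspan12, the Frizzled4 co-receptor component, had intensities of 1747 in 9v, 1196 in 14d, 301 in 10d and 799 in 13d. Line 10d was again lowest, 5.80-fold under 9v, and both labelled bcat* lines lay below both labelled WT lines. This gene had 1 probe set, of a kind that may cross-hybridize with related transcripts. Its receptor gene Fzd4 was dim, with 58 in 9v, 40 in 14d, 68 in 10d and 16 in 13d, and did not follow the order of Tspan12. The co-receptor Lrp6 had intensities of 704 to 997, and Lrp5 and the ligand gene Ndp were undetected in every line.

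Among members with a less settled role, Tspan13 varied most of the 19, with intensities of 506 in 9v, 57 in 14d, 166 in 10d and 1001 in 13d. The highest line, 13d, and the lowest, 14d, were 17.6-fold apart, and the second probe set gave the same order (112, 15, 80 and 406). The probe sets differed in the male pair, where 10d minus 9v was -1.61 on the log2 scale in the first and -0.49 in the second. Tspan2, known from myelinating glia, had intensities of 330 in 9v, 515 in 14d, 49 in 10d and 71 in 13d. Both labelled WT lines exceeded both labelled bcat* lines by at least 4.65-fold. Its other probe sets showed the same split, with 495, 562, 19 and 75 in one and 43, 40, 6 and 7 in the other, and their values under 32 lie below the detection level. Over the same lines the summed intensity of the Schwann cell list was 118, 29, 392 and 3866, almost all of it S100b in 13d, and its part in the values of Tspan2 and Tspan13 was not tested. Tspan31, amplified together with Cdk4 in sarcomas, ranged from 6168 in 9v to 7939 in 10d. Tspan32, a leukocyte member, was under the detection level in 9v, 14d and 10d (8 to 9) and 74 in 13d, at least 2.31-fold higher, but its other probe set was undetected throughout (12 to 15). Rom1, a photoreceptor member, was detected in 14d only, with 41 against 9 in each other line.

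**Figure D2:**
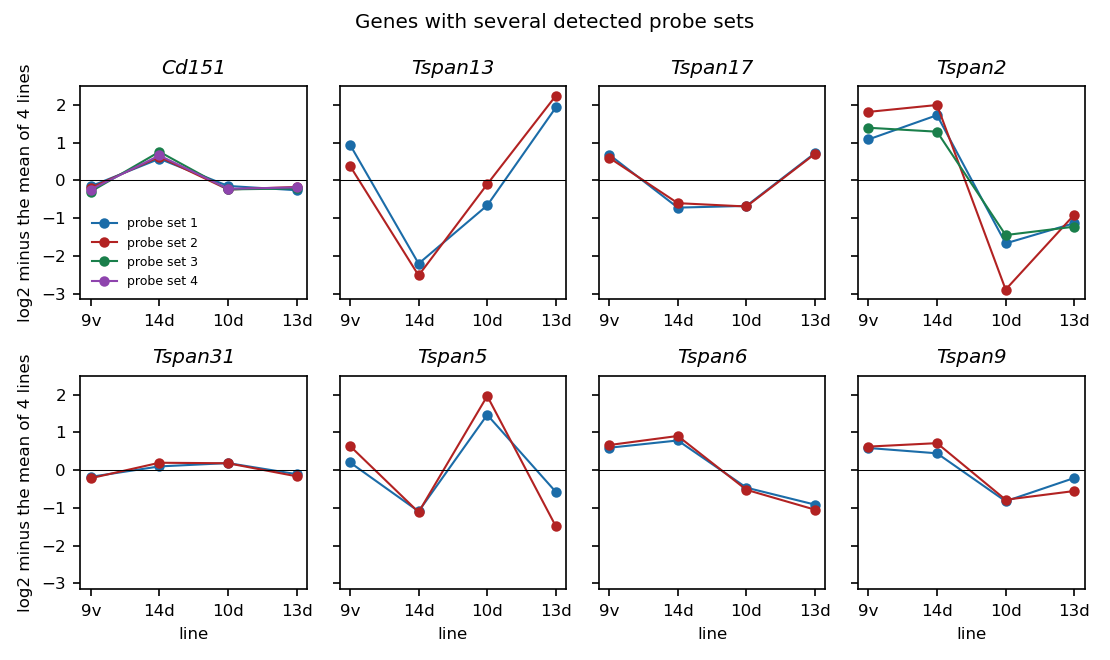
Log2 intensity minus the mean of the 4 lines (vertical axis) in each line (horizontal axis) for the 8 tetraspanin genes with more than 1 detected probe set, 1 curve per probe set and 1 array per point. The curves of Cd151, Tspan6 and Tspan17 run close together, whereas the probe sets of Tspan13 differ in their step from 9v to 10d, and those of Tspan5 part in 13d and those of Tspan2 in 10d.

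The lines were then compared pair by pair, a gene counting when it differed by at least 2-fold after values were raised to the detection level. Lines 10d and 9v are the bcat* and WT lines on which all sources agree. Of 17 tetraspanin genes detected in either line, 10 differed (58.8%), against 17.9% of all detected genes. Tspan5 was 2.39-fold higher in 10d, and Cd82, Tspan2, Tspan12, Tspan13, Cd9, Tspan9, Tspan17, Tspan14 and Tspan6 were 15.0-fold to 2.08-fold lower in 10d. The median log2 difference was -1.06 over the 17 genes and 0.00 over all genes. The comparison of 10d with 14d shares line 10d and gave 9 of 18 (50.0%), against 23.9% of all genes, with Tspan13 and Tspan5 higher in 10d and Cd82, Cd9, Tspan12, Tspan14, Tspan2, Tspan6 and Tspan9 lower. Between 13d and 10d, 7 of 18 differed (38.9%), against 14.8% of all genes, and all but Tspan5 were higher in 13d.

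The pairs without 10d held 4 or 5 such tetraspanin genes each, but up to 10 at a threshold of 1.5-fold, at which the pairs with 10d held 9 or 10. Between 13d and 9v, 5 of 18 tetraspanin genes differed (27.8%), against 13.0% of all genes, with Tspan32 higher and Cd82, Tspan12, Tspan2 and Tspan6 lower in 13d. Between 13d and 14d, 5 of 19 differed (26.3%), against 19.7%, with Tspan13, Tspan17 and Tspan32 higher and Tspan2 and Tspan6 lower in 13d. Between 14d and 9v, 4 of 17 differed (23.5%), against 15.4%, and Cd82, Tspan13, Tspan17 and Tspan5 were all lower in 14d. Line 10d was the lowest of the 4 lines for 7 of the 16 tetraspanin genes detected in every line, and it was the lowest for 27.0% of the 8324 genes detected in every line. Lines 9v, 14d and 13d were lowest for 3 tetraspanin genes each, and for 22.3%, 28.5% and 22.2% of all genes, so that over all genes 14d was more often lowest than 10d. Line 14d was most often the highest, for 7 of the 16, against 29.8% of all genes. As each line has 1 array, these counts have no replicate check.

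**Figure D3:**
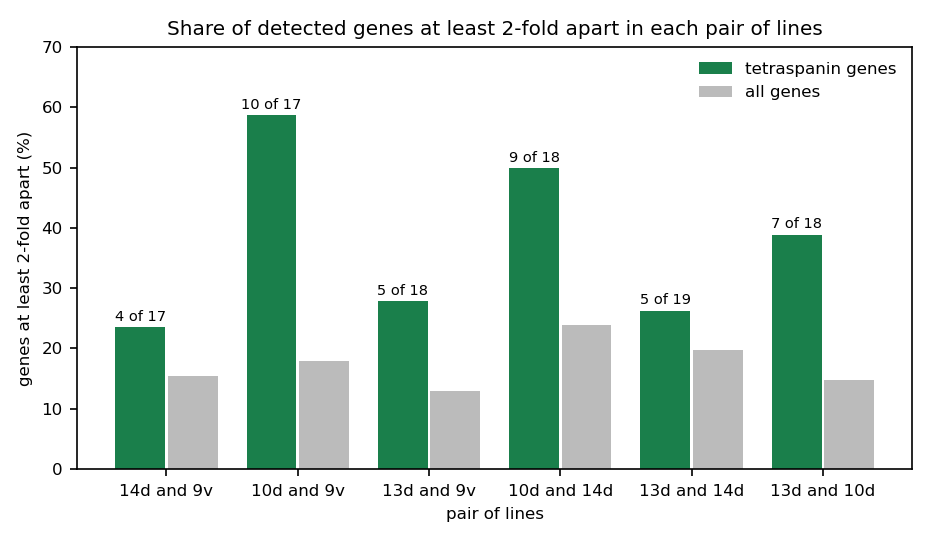
Percentage of detected genes at least 2-fold apart (vertical axis, from 0) in each of the 6 pairs of lines (horizontal axis), for tetraspanin genes (green, with counts above the bars) and all genes (grey), 1 array per line. The share of tetraspanin genes is 58.8% for 10d and 9v and 50.0% for 10d and 14d.

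When the lines were grouped by the labelled genotype, 8 of the 19 detected tetraspanin genes were lower in both bcat* lines (10d and 13d) than in both WT lines (9v and 14d), or 42.1%, against 19.5% of all detected genes. They were Tspan2, Tspan6, Tspan12, Tspan9, Cd9, Tspan10, Tspan14 and Cd81, the last by no more than 21390 against 21529. The groups also came close for Tspan14 (570 in 13d against 635 in 9v) and for Cd9 (9088 in 13d against 11786 in 14d). Tspan15 alone was higher in both bcat* lines (5.26%, against 18.4% of all genes). A gap of at least 2-fold between the groups was found for Tspan2 and Tspan6 only, 10.5% of the 19, against 3.00% of all genes. Differences between the group means on the log2 scale (bcat* minus WT, with the standard error, n = 2 lines each) were tested with limma over all 18193 genes, of which 232 passed an adjusted p of 0.05 (1.28%), 215 of them under the detection level in every line. None of the 29 tetraspanin genes passed, and 4 had an unadjusted p under 0.05, as had 6.46% of all genes. For Tspan2, the means were 8.69 in WT and 5.88 in bcat*, a difference of -2.81 ± 0.38 with a 95% confidence interval of -4.10 to -1.51 (limma, adjusted p = 0.345). The difference was -1.38 ± 0.22 for Tspan6 (limma, adjusted p = 0.461), -1.03 ± 0.29 for Tspan9 (limma, adjusted p = 0.748) and -0.70 ± 0.18 for Tspan10 (limma, adjusted p = 0.720).

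The other members were further from the threshold in the same test. Tspan12 differed by -1.56 ± 0.66 (limma, adjusted p = 0.984) and Cd9 by -0.99 ± 0.49, Cd82 by -1.89 ± 1.30 and Tspan13 by 1.26 ± 1.78 (limma, adjusted p = 1 for each). Lines of 1 labelled genotype were thus far apart for Cd82 and Tspan13, and Tspan17 differed by 0.04 ± 0.87. Over the 19 detected genes, 12 had a mean that was lower and 7 one that was higher in bcat*, with a median difference of -0.41. Of the 9415 detected genes, 48.7% were lower and 51.2% higher, with a median of 0.02.

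With the genotypes that the article gives to 13d and 14d, 7 members separated the groups. Lower in both bcat* lines (10d and 14d) than in both WT lines (9v and 13d) were Tspan13, Tspan17 and Cd82, 3 of 19 (15.8%), against 14.1% of all genes. Higher in both were Cd151, Tspan3, Tspan4 and Tspan31, 4 of 19 (21.1%), against 16.1%. The gap was at least 2-fold for Tspan13 and Tspan17, against 1.14% of all genes. In this reading limma called 49 genes (0.269%), 48 of them under the detection level in every line. None of the 29 tetraspanin genes passed, and 3 had an unadjusted p under 0.05, as had 3.63% of all genes. Tspan17 differed by -1.40 ± 0.09 (limma, adjusted p = 0.328), Tspan13 by -2.87 ± 0.80 and Tspan31 by 0.28 ± 0.07 (limma, adjusted p = 1 for each). Of the 19 detected genes, 9 then had a lower and 10 a higher mean in bcat*, with a median difference of 0.05, while 49.2% of all detected genes were lower and the median was 0.01. Grouped by sex, Tspan5 was the only 1 of 19 whose groups did not overlap (5.26%), against 25.7% of all genes.

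The male lines (10d minus 9v) and the female lines (13d minus 14d) share no array, and by the labels each pair sets bcat* against WT. Tspan2 had a log2 difference of -2.75 between the male and of -2.86 between the female lines, and Tspan6 of -1.06 and -1.70. These were the only 2 of the 19 tetraspanin genes at least 2-fold apart in the same direction in both pairs, against 439 of the 9415 detected genes. Tspan13 and Tspan17 were at least 2-fold apart in both pairs but in opposite directions, with log2 differences of -1.61 and 4.13 for Tspan13 and of -1.36 and 1.44 for Tspan17. Of the 9415 detected genes, 177 were at least 2-fold apart in both pairs in opposite directions. In the second probe set of Tspan13 the male difference was -0.49, under 2-fold. In all, 4 of 19 tetraspanin genes were at least 2-fold apart in both pairs (21.1%), against 616 of 9415 genes (6.54%). Of the 19, 8 were lower in both pairs (42.1%, against 25.7% of genes), 2 were higher in both (10.5%, against 25.5%) and 7 went in opposite directions (36.8%, against 41.9%). The 8 are the genes named above as lower in both labelled bcat* lines, which by itself makes them lower in both pairs. The pairs use the same arrays as that grouping, so that these counts are not a further check of it. Cd82 and Tspan12, which were 15.0-fold and 5.80-fold lower in 10d than in 9v, differed by 1.10-fold and 1.5-fold between the female lines.

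**Figure D4:**
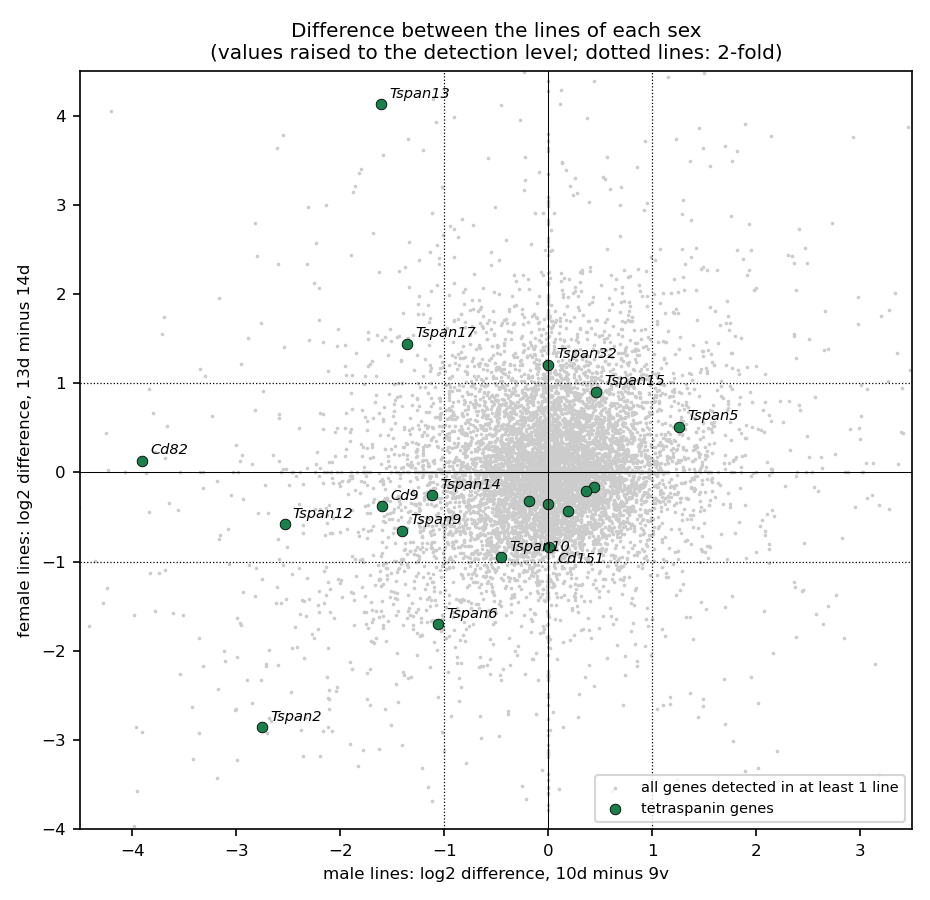
Log2 difference between the male lines (10d minus 9v, horizontal axis) and between the female lines (13d minus 14d, vertical axis) for the 19 detected tetraspanin genes (green) and all 9415 detected genes (grey), with values raised to the detection level, 1 array per line and dotted lines at 2-fold; 115 genes lie outside the axes. Tspan2 and Tspan6 lie in the lower left, and Tspan13 and Tspan17 in the upper left.

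A list of 46 genes that bind tetraspanins or act with them was set beside the family. Of these, 45 were measured and 31 detected, and 7 of the 31 ranged by at least 2-fold over the lines (22.6%), fewer than the 57.9% of tetraspanin genes and the 40.1% of all genes, a difference that was not tested. In the labelled comparison none of the 45 passed (limma), and 1, Tsg101, had an unadjusted p under 0.05 with a difference of -0.32 ± 0.07. In the article's reading, none passed and none had an unadjusted p under 0.05.

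The largest ranges were those of Apoe, an apolipoprotein that binds Pmel fibrils on Cd63-bearing vesicles, Itga4, the α4 integrin subunit, and Ptgfrn, an immunoglobulin-domain partner of Cd9 and Cd81. Apoe had intensities of 4 in 9v, 17155 in 14d, 598 in 10d and 2129 in 13d. Itga4 had intensities of 583 in 9v, 1852 in 14d, 62 in 10d and 4 in 13d, and both labelled WT lines lay above both labelled bcat* lines. Ptgfrn was detected in 14d only, with 388 against 17 or less in the other lines. Each of these ranges rests on 1 probe set. Apoe had no other, and those of Itga4, which had 5 in all, and of Ptgfrn, which had 2, are not given here. Of the other detected partners, Hbegf, Prkca, Fzd4 and Adam17 also ranged by at least 2-fold, and those given next by less. Itgb1, the β1 integrin subunit, had intensities of 7596 in 9v, 8966 in 14d, 5076 in 10d and 8452 in 13d and was lowest in 10d, as were Cd9 and Tspan9. Itga6, the α6 subunit that pairs with Cd151, ranged from 2008 in 9v to 2771 in 13d and was not highest in 14d, where Cd151 was. Igsf8, another partner of Cd9 and Cd81, had 4647 to 4659 in 9v, 10d and 13d and 2556 in 14d. Sdcbp, which encodes the exosome adaptor syntenin, ranged from 21795 in 14d to 33221 in 10d, and Pmel from 49559 in 13d to 55363 in 14d. Itga3 and Itgb4 and the uroplakins Upk2, Upk3a and Upk3b, like Upk1a and Upk1b, were undetected.

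**Figure D5:**
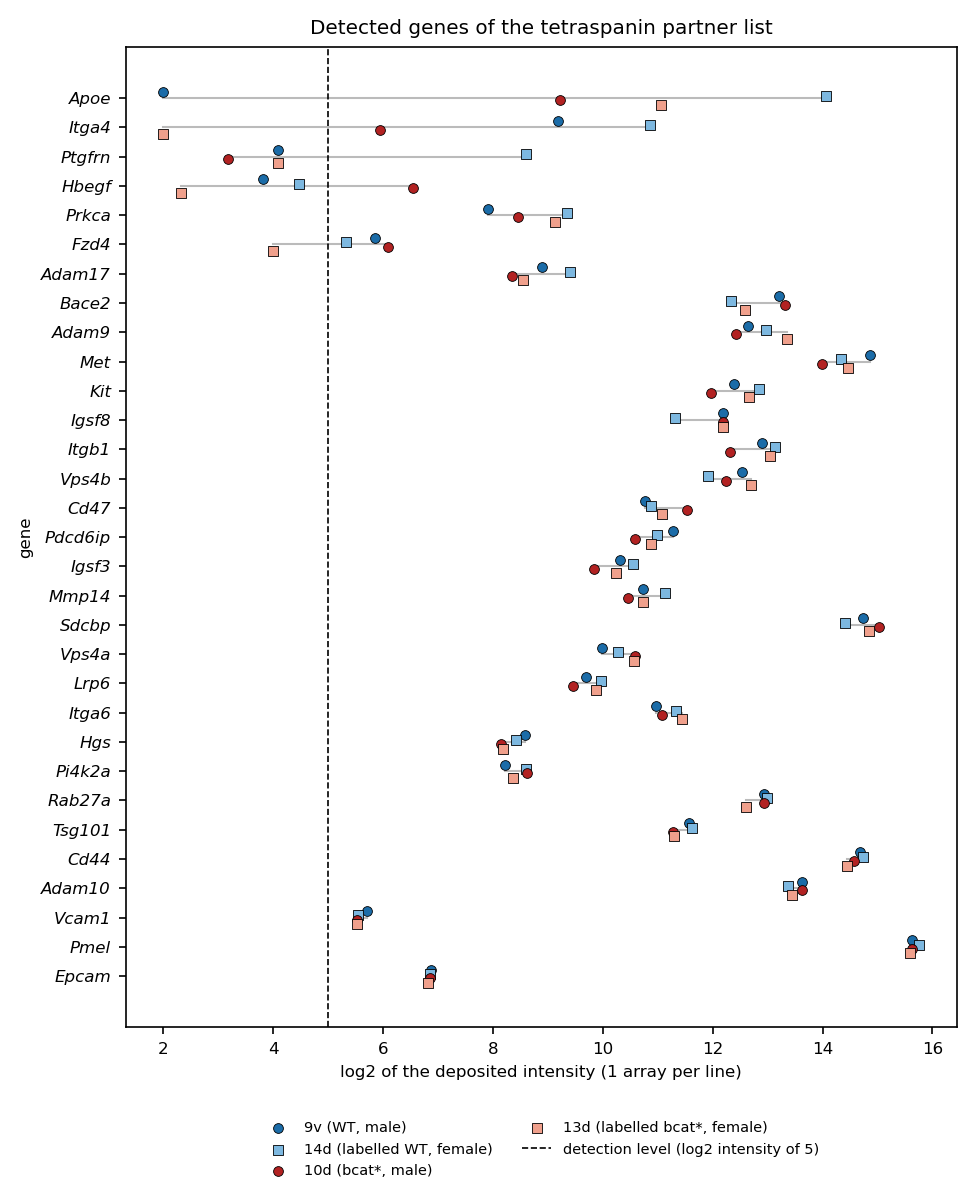
Log2 intensity (horizontal axis) of the 31 detected genes of the partner list (vertical axis, ordered by their range) in each line, 1 point per array and therefore without error bars; points are shifted vertically only to keep them apart, and the dashed line is the detection level. Apoe, Itga4 and Ptgfrn spread most, and the points of Pmel, Adam10 and Cd44 lie close together.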

How the data were processed

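Expression in the 4 melanocyte lines was profiled with 1 Affymetrix array each. The authors deposited 1 intensity per probe set, and the submitters' processing notes name GCRMA, which corrects background by probe sequence and normalizes between arrays; no version is given in the sources used here. These deposited intensities were whole numbers from 2 to 84904, which were read as linear from their values. Their median was 8 in 9v, 14d and 13d and 7 in 10d. Because values are rounded, ratios of dim probe sets are coarse, and precision is limited by the number of arrays.

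Intensities were converted to log2. Of 45037 probe sets, a platform annotation gave 34945 with 1 gene, 932 with several and 9160 not listed; only the first were used, and no symbol needed an update through a RefSeq table (GRCm38.p6). A gene took its probe set of highest average log2 value. Folds used values raised to the detection level (log2 intensity of 5), and a fold to a value under it is written as at least. Groups were taken from the labels, which give 9v and 14d as WT and 10d and 13d as bcat*, and genotypes were also exchanged for 13d and 14d as in the Methods of the article. The article also calls the mice male, while the labels give 13d and 14d as female, and sex-linked genes matched the labelled sex in every line. Differences were tested with limma 3.58.1 (R 4.3.3; lmFit and eBayes with a variance trend, two-sided, Benjamini-Hochberg over all genes, threshold of 0.05), after the fit was tested on simulated data. The members, the lists of roles, partners and markers and the rule for the genes named were chosen with earlier results of these data known. By that rule every detected member is named, those with the largest ranges and Cd9, Cd81, Cd82, Cd151, Tspan10 and Tspan12 in full, and of the partners those with a log2 range of at least 2 and Adam10, Itgb1, Itga6, Sdcbp, Pmel and Fzd4; Lrp6, Igsf8 and Tsg101 were added after their values were seen. The alternatives tried were an average over probe sets, no probe sets of possible cross-hybridization, median centring, quantile normalization, other detection levels and fold thresholds, sex as a covariate, a filter on dim genes, no variance trend and leaving out each line. Probe sets of possible cross-hybridization were those with names ending in _a_at, _s_at or _x_at, and cross-hybridization itself was not tested. Promoter windows ended at the base before an annotated start, and a gene can have several. Python 3.11.15, NumPy 2.4.6, pandas 2.3.3 and matplotlib 3.10.9 were used.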

Additional observations from a re-analysis of the deposited data

Results flagged for a closer look

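The difference between lines of each sex was at least 2-fold in opposite directions for 2 of the 19 detected tetraspanin genes. The same held for 177 of the 9415 detected genes. Tspan13 was lower in 10d than in 9v (male lines, log2 difference of -1.61) and higher in 13d than in 14d (female lines, 4.13), but the male difference was -0.49 in its second probe set, so that a male difference of 2-fold rests on 1 of 2 probe sets. Tspan17 was likewise lower in 10d than in 9v (-1.36) and higher in 13d than in 14d (1.44). Each line has 1 array, so that the difference between the male and the female pair was not tested. With the genotypes that the article gives to 13d and 14d, both genes were lower in both bcat* lines than in both WT lines. A difference between the sexes and an exchange of the labels of 13d and 14d cannot be told apart here.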

How the results depend on the processing

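No tetraspanin gene passed limma's threshold in the labelled comparison with other probe sets, scaling, sex as a covariate, a filter on dim genes or no variance trend, and leaving out 1 line gave 0 to 1 (Rom1 without 9v, and Tspan8, with intensities of 7 to 8, without 14d). Partners passing numbered 0 to 2 when a line was left out. Calls over all genes moved from 232 to 364 to 1015 without 1 line, to 132 with sex as a covariate, to 37 after median centring, which shifts 10d by 0.14 and the others by -0.05, and to 0 of 8892 with the filter on dim genes, where 7.93% had an unadjusted p under 0.05. At a threshold of 3-fold, 1 tetraspanin gene differed between 14d and 9v, 5 between 10d and 9v, 1 between 13d and 9v, 4 between 10d and 14d, 3 between 13d and 14d and 3 between 13d and 10d, against 5.87% to 10.5% of all genes. At 1.5-fold, 10 differed between 13d and 9v (27.9% of all genes), 9 between 13d and 14d (40.5%), 6 between 14d and 9v (33.4%), 10 between 10d and 9v (37.5%), 10 between 10d and 14d (43.9%) and 9 between 13d and 10d (33.4%), so that 13d with 9v or 14d then held about as many as the pairs with 10d. The pair with the highest count was 10d and 9v (10, against 9 for 10d and 14d), but 10d and 14d with median centring (9 against 8) and at a detection level of log2 4 (11 against 10). Leaving out probe sets of possible cross-hybridization removes Tspan12 and Tspan14 and leaves Tspan32 with an undetected probe set. Then 3 differed between 13d and 9v, where Tspan12 and Tspan32 no longer counted. Of 48 recounts of pairs, 39 stayed within 1.5 times. The labelled difference turned to -0.06 for Tspan31 with the mean of its probe sets and to -0.11 for Tspan32 without probe sets of possible cross-hybridization, and 72 of 74 recomputed differences kept their sign. The range of Cd82 was 1.78 on the log2 scale with the mean of its probe sets, and that of Tspan32 was 0 with the mean or without its cross-hybridizing probe set. The counts of members whose genotype groups did not overlap stayed within 1.5 times in 18 of 18 recounts, which were chosen after seeing the data. No analysis paired by replicate number was possible because the labels carry none, and the lines were paired by their labelled sex instead. The number of arrays and the rounding of dim values limit what can be told apart.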

Other observations

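Several tetraspanin genes are neighbours on their chromosome, as ordered in the RefSeq table, and did not share their pattern. Tspan18 and Cd82, on chromosome 2 with 0 protein-coding genes between them, had intensities of 6 in every line and of 50 to 750. Tspan11 and Tspan9, on chromosome 6 with 0 between them, had intensities of 6 in every line and of 400 to 1063. Tspan32 and Cd81, on chromosome 7 with 0 between them, were detected in 13d only and in every line, respectively. Cd151 and Tspan4, on chromosome 7 with 1 gene between them, were highest in different lines, 14d and 10d.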
